A study of Homo sapiens with 15 samples.

Results

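The genes described here encode the subunits of the proteasome and its activators, measured as transcripts in A549 cells exposed to dimethylamine vapour. They were chosen by name: each gene had to be protein coding and carry a symbol of the PSMA, PSMB, PSMC, PSMD or PSME series, and at least 1 transcript cluster (the gene-level unit of the array) had to be annotated with that symbol alone. PSMB8 and PSMB9, antisense names and pseudogenes were left out. The rule gave 37 genes of the 17622 protein-coding symbols with a cluster of their own, from 47 clusters, and the cluster with the highest mean over the 15 arrays stood for its gene. Of the 37 genes, 17 encode the core particle (8 PSMA and 9 PSMB genes), 17 the regulatory particle (PSMC and PSMD) and 3 other activators of the core particle (PSME1, PSME3 and PSME4). PSME2 shared its cluster with another symbol, and PSMC5, PSMD7 and PSMD13 were not analysed here.

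The proteasome degrades proteins that carry ubiquitin chains. Its core particle is a barrel in which rings of alpha subunits (PSMA) form the gate and rings of beta subunits (PSMB) line the chamber, where PSMB5, PSMB6 and PSMB7 carry the chymotrypsin-like, caspase-like and trypsin-like active sites. The regulatory particle sits on the gate: the ATPases of its base (PSMC) unfold the substrate, other base subunits bind ubiquitin, and the lid removes the chain. When proteasome activity is short, the transcription factor NFE2L1 (NRF1) is known to raise the transcription of many subunit genes together, through antioxidant response elements in their promoters.

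A549 is a line from a human lung adenocarcinoma with epithelial character. The cells were grown on porous membranes with air above and medium below, and vapour reached them from the top for 60 min, with 23 h of recovery, 3 times within 72 h. The 15 arrays comprised non-exposed control cells without any flow (NEC), clean air control cells that had the flow without dimethylamine (CA), and cells given 14.9 ppm (LD), 41.1 ppm (MD) or 81.7 ppm (HD) dimethylamine, with 3 arrays per group. All groups were of the same line and culture, and serum was taken away before exposure. Every array held RNA pooled from 2 wells, and p-values here reflect only how such pools vary within the groups. In CA and NEC that variation includes any difference between the plates named next. The labels put the LD arrays on exposure plate 1, the MD arrays on plate 5 and the HD arrays on plate 6, and spread the CA and the NEC arrays singly over plates 1, 5 and 6, so that dose and plate can be told apart only through CA and NEC. The study's design exposed fewer cultures on a plate than 3 pools of 2 wells require, and several physical plates may carry the same label. Values with the plate as a block, or within a plate, therefore go by the label only. In RNA from whole wells, fewer cells of a type and less RNA per cell cannot be told apart.

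Values are log2 signals as normalised by the authors, on a scale whose background is given by 612 negative control clusters with a median of 4.74. A gene's signal can be compared between arrays but not with the signal of another gene. The epithelial markers KRT8, KRT18, KRT19, CDH1 and EPCAM all lay above the negative controls in every group. Of 10 markers of leukocytes, fibroblasts and endothelium, 2 or 3 did. These were COL1A1 (10.34 in CA and 10.21 in HD), CD14 (6.84 and 6.69) and, except in LD, PTPRC (5.52 and 5.35). The array mean over all 10 was 4.59 to 4.90 in HD and 4.67 to 4.89 in CA. Among the epithelial markers, KRT19 differed by 0.99 (adjusted p = 0.363) and CDH1 by -1.11 (adjusted p = 0.270) between HD and CA. Subunit transcripts were well detected: 34 of the 37 genes were above the negative control level on all 15 arrays, with means between 9.12 and 14.93. The other 3 encode tissue-restricted or inducible subunits. PSMA8, the alpha subunit of germ cells, was below that level on every array, PSMB11, the thymic counterpart of PSMB5, was above it on 2 of 15, and PSMB10, the inducible counterpart of PSMB7 in the immunoproteasome, on 5 of 15, so the size of any difference in these genes is uncertain.

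The promoters of the members were examined for sequence features that the choice of genes did not use. RefSeq windows of 250 bases before to 50 bases after the start (build GRCh38.p14) were at hand for 32 of the 37 genes. The windows below belong to the catalytic subunit PSMB5 and to 4 genes with large differences in the results, namely PSMB3 of the beta ring, PSMA3 of the alpha ring, PSMD1 of the base and the assembly chaperone PSMD9. They lie at chr14:23035171-23035470 (minus strand), chr17:38752491-38752790, chr14:58244593-58244892, chr2:231056617-231056916 and chr12:121888540-121888839 (plus strand for the other 4). Capitals mark the letters of the antioxidant response element core, TGACNNNGC, and of the CCAAT box, CCAAT, on either strand.
PSMB5: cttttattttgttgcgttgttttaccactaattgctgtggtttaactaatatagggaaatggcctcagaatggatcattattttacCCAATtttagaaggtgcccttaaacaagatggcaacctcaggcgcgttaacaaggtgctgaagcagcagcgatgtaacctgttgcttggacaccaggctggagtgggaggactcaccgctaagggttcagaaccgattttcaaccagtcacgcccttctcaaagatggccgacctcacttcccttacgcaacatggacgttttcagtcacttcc
PSMB3: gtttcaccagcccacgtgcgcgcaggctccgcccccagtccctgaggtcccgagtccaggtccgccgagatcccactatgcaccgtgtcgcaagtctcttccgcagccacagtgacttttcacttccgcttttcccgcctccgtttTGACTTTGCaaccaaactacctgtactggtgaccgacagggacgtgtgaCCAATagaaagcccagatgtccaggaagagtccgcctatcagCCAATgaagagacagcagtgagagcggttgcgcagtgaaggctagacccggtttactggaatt
PSMA3: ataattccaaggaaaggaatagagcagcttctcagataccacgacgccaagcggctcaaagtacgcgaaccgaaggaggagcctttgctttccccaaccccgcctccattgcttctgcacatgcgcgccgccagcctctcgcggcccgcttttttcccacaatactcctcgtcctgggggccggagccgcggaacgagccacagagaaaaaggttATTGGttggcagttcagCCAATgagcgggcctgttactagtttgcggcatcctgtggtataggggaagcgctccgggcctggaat
PSMD1: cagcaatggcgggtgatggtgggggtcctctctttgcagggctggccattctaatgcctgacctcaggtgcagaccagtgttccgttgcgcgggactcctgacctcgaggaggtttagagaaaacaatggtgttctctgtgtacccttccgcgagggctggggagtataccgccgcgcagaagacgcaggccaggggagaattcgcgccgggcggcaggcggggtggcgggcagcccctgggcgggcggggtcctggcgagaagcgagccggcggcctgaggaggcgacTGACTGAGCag
PSMD9: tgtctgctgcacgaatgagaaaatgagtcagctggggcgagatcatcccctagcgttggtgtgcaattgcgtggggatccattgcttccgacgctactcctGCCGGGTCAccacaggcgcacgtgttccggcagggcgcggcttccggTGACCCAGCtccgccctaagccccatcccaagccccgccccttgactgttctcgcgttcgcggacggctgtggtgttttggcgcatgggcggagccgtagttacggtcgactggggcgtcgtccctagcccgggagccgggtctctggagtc

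PSMD9 held TGACNNNGC on both strands before its start, PSMB3 held it at position -104 from the start beside 2 CCAAT boxes, PSMD1 held it at position 39, and PSMB5 and PSMA3 showed only CCAAT. Over the 32 windows, TGACNNNGC occurred in 9 (28.1%), against 14.3% of all 15843 protein-coding promoters of that length, and these 9 were PSMB3, PSMC4, PSMD1, PSMD3, PSMD5, PSMD9, PSMD12, PSME1 and PSME4. CCAAT occurred in 15 (46.9%, against 36.4% of all promoters), the ETS motif CCGGAAG in 10 (31.3%, against 14.2%) and the GC box GGGCGG in 19 (59.4%, against 58.5%), each searched on both strands. A match describes the letters and not a bound site, and the shares carry no test. The genes are spread over 16 chromosomes. The only members that lie within 1 Mb of each other are PSMD4 and PSMB4 on chromosome 1, 132.1 kb apart, and PSMB5 and PSMB11 on chromosome 14, 7.0 kb apart.

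The first question was whether the high dose changed the subunit transcripts relative to clean air. No member passed the adjusted threshold in HD against CA (limma, Benjamini-Hochberg over all 135750 clusters, adjusted p below 0.05), where 0.0435% of all clusters did, and the lowest adjusted p of a member was 0.723. Of the 37 genes, 25 were higher and 12 lower in HD, with a median log2 difference of 0.10. Over 3749 protein-coding genes with signals in the range of the members, the median was 0.07 and 58.7% were higher. An unadjusted p below 0.05 was reached by 2 members, both higher in HD, where 6.39% of all clusters reached it in either direction. In this fit, which leaves the plate out, the 95% confidence interval of 33 of the 37 genes stayed within a 2-fold difference in both directions. The 33 include the low-signal PSMA8 and PSMB11, whose intervals near the background say little about their transcripts. Both genes and the low-signal PSMB10 are also part of the counts of higher and lower genes. The half-width of the 37 intervals was 0.43 to 0.70 on the log2 scale. They reflect the spread between arrays within the groups. That spread mixes pools and labelled plates in CA and NEC, but comes from pools under a single label in each dose group. A difference between plates is therefore covered only in part. With the plate as a replicate block the median was -0.12 and 13 of 37 genes were higher, and without CA replicate 1 the median was -0.01, so the direction of the median rests on the setting. Under that block the members with an unadjusted p below 0.05 were 2 others, both lower in HD, PSMA3 and the lid subunit PSMD11 (7.56% of all clusters in either direction), and after centring each array on its signal-dependent trend they were PSMB6 and PSMB7, higher, and PSMA3 and PSMD1, lower (5.97% of all clusters).

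**Figure D1:**
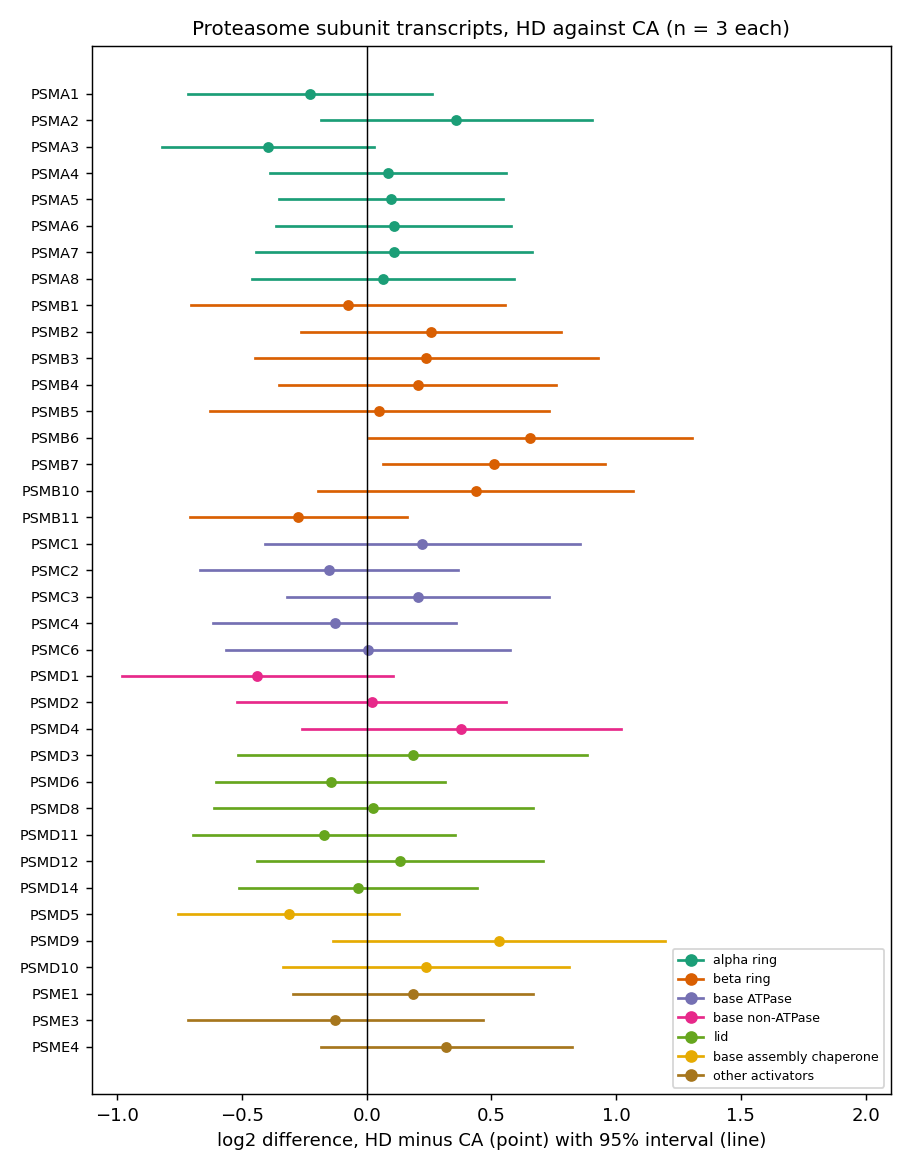
Log2 difference of each of the 37 subunit genes between HD and CA (points, x axis, no unit) with its 95% confidence interval (lines), one gene per row, coloured by structural role. The intervals of PSMB6 and PSMB7 alone lie above 0, and none lies below it.

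The 2 members with an unadjusted p below 0.05 were catalytic subunits. PSMB6, which carries the caspase-like site, had signals of 11.32, 11.41 and 11.68 in HD, against 10.64, 10.71 and 11.08 in CA. All HD arrays were above all CA arrays, and the difference was 0.66 (95% interval 0.01 to 1.30, adjusted p = 0.777). PSMB7, which carries the trypsin-like site, had 12.29, 12.62 and 12.84 in HD, against 11.89, 12.14 and 12.18 in CA. Its groups did not overlap either, with a difference of 0.51 (0.06 to 0.96, adjusted p = 0.723). PSMB5, the chymotrypsin-like subunit, had 10.17, 10.35 and 10.89 in HD, against 9.85, 10.42 and 10.99 in CA. The HD arrays lay inside the span of the CA arrays, with a difference of 0.05 (-0.63 to 0.73). Without HD replicate 3, or without CA replicate 1, no member had an unadjusted p below 0.05 (limma). Of all 135750 clusters, 4091 higher and 4388 lower ones had such a p without HD replicate 3. Without CA replicate 1 the counts were 3655 and 4664. Within plate 6 alone, where CA has a single array, the HD mean exceeded that array by 0.39 in PSMB6 and 0.40 in PSMB7 and differed from it by -0.52 in PSMB5.

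**Figure D2:**
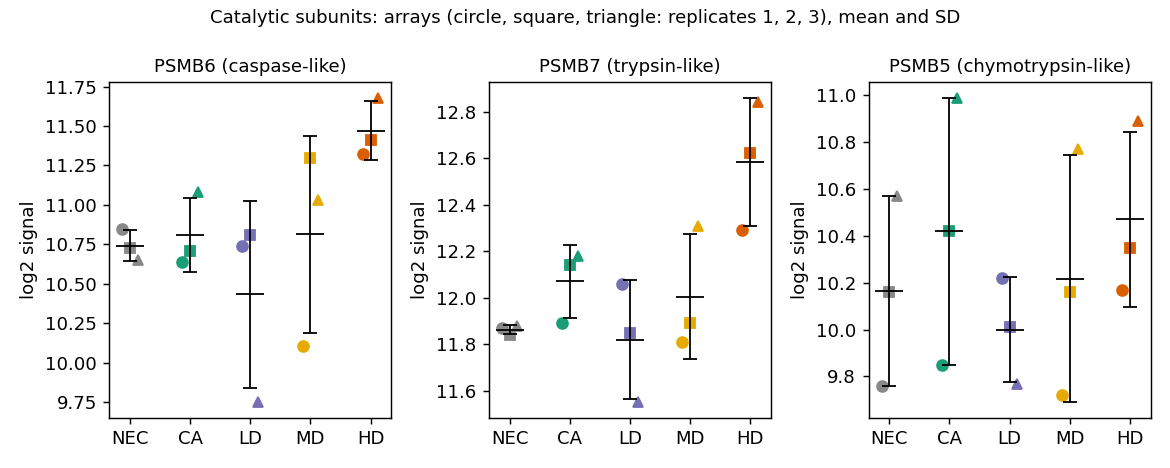
Log2 signal (y axes, each with its own range) of the catalytic subunits PSMB6, PSMB7 and PSMB5 in every array of NEC, CA, LD, MD and HD (x axes), with the mean and SD of 3 arrays in black. In PSMB6 and PSMB7 the HD arrays lie above all CA arrays, and in PSMB5 they lie among them.

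In the remaining beta ring, PSMB2, PSMB3 and PSMB4 differed by 0.26, 0.24 and 0.21 and PSMB1 by -0.07 between HD and CA, all with overlapping arrays. The low-signal PSMB10 differed by 0.44 (-0.19 to 1.07) and PSMB11 by -0.27 (-0.71 to 0.16). Over the 9 beta ring genes, 7 were higher in HD, with a median of 0.24. Over the 8 alpha ring genes, 6 were higher, with a median of 0.09. Both directions turned with the plate as a replicate block, which left 4 of 9 beta ring genes higher (median -0.12) and 3 of 8 alpha ring genes higher (median -0.10). Among the alpha ring genes, PSMA2 had the largest positive difference without the block, 0.36 (-0.18 to 0.90), while PSMA1 differed by -0.23 (-0.72 to 0.26).

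PSMA3, an alpha ring subunit, had lower means at every dose than in CA. Its signals were 12.62, 12.54 and 12.75 in NEC, 12.82, 12.81 and 13.20 in CA, 12.47, 12.78 and 12.61 in LD, 12.47, 12.65 and 12.79 in MD, and 12.22, 12.74 and 12.68 in HD. Every array of LD, MD and HD, and every NEC array, lay below the lowest CA array. Its difference between HD and CA was -0.39 (-0.82 to 0.03, adjusted p = 0.809), and the 3 dose groups share the CA arrays they are set against. With the plate as a replicate block the difference was -0.58 (adjusted p = 0.618).

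In the base of the regulatory particle, PSMD1, a scaffold subunit, had 13.06, 13.26 and 13.31 in HD, against 13.55, 13.72 and 13.67 in CA. All HD arrays were below all CA arrays, by 0.44 on average (difference -0.44, interval -0.98 to 0.10, adjusted p = 0.857). PSMD2, the other scaffold, differed by 0.02, and the ubiquitin receptor PSMD4 by 0.38 (-0.26 to 1.02), with overlapping arrays in both. The base ATPases showed no common direction, since PSMC1, PSMC3 and PSMC6 differed by 0.22, 0.20 and 0.01 and PSMC2 and PSMC4 by -0.15 and -0.13. With the plate as a replicate block all 5 were lower in HD, with a median of -0.23. PSMC4 was represented by a cluster that the array design places at no chromosome position, and its cluster with an Entrez identifier differed by 0.03. The remaining PSMC4 clusters, all of lower signal, ranged from -0.54 to 0.10. The dimmer clusters annotated as PSMC1 and PSMC6, both without an Entrez identifier, differed by 0.185 and -0.44. The array's name for that PSMC1 cluster points to another chromosome than that of the gene, so it may not measure PSMC1.

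The 6 lid genes had a median of -0.004 between HD and CA, with 3 higher and 3 lower, and with the plate as a replicate block 1 was higher, with a median of -0.14. PSMD11 had 12.36, 12.66 and 12.73 in HD, against 12.45, 12.86 and 12.95 in CA, with overlapping arrays and a difference of -0.17 (-0.57 with the block, adjusted p = 0.636). The deubiquitinating subunit PSMD14 differed by -0.03 (-0.51 to 0.44). The lid subunit PSMD6 had 11.07, 11.12 and 11.12 in HD, against 11.18, 11.22 and 11.33 in CA, so its groups were apart, at a difference of only -0.14 (-0.60 to 0.31). Of the chaperones that help to assemble the base, PSMD5 had 10.45, 10.85 and 10.65 in HD, against 10.86, 11.08 and 10.95 in CA. The lowest CA array was barely above the highest HD array, and the difference was -0.31 (-0.76 to 0.13). PSMD9 had 8.75, 10.04 and 9.76 in HD, against 9.27, 8.93 and 8.76 in CA. HD replicate 1 was at the level of the lowest CA array while the other HD arrays were the highest of both groups, and the difference was 0.53 (-0.13 to 1.20). PSMD10 differed by 0.24. Of the other activators, PSME1, PSME3 and PSME4 differed by 0.19, -0.13 and 0.32, each with overlapping arrays.

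Arrays of HD and CA were thus apart in 6 of 37 genes (2 higher, 4 lower in HD), where 10.8% of all clusters were apart. The 9 genes with TGACNNNGC had a median difference of 0.19 between HD and CA (6 higher, 3 lower, range -0.44 to 0.53), and the 23 genes with a window but without it had 0.05 (15 higher, 8 lower, range -0.39 to 0.44). The 5 genes with no window, PSMB6 and PSMB7 among them, had a higher median than either, 0.38 (4 higher, 1 lower, range -0.07 to 0.66). PSMD1 and PSMD9, whose windows are printed above, both hold the core and lie at the opposite ends of that range.

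The lower doses were compared with the same CA arrays. In MD against CA no member passed (0% of all clusters did), 16 genes were higher and 21 lower, and the median was -0.01, against -0.02 over the protein-coding genes of like signal. The arrays were apart in 2 members, PSMA3 and PSMD5, both lower in MD (11.4% of all clusters were apart). Of all clusters, 6.17% had an unadjusted p below 0.05 in either direction and 1 member had one, PSMD5, with 10.25, 10.55 and 10.74 in MD against 10.86, 11.08 and 10.95 in CA. The MD arrays were all lower, by a difference of -0.45 (-0.89 to -0.003, adjusted p = 0.809). PSMB3 differed by -0.44 and the lid subunit PSMD8 by -0.38, both with overlapping arrays, and the largest positive differences were those of PSMD9 (0.24), PSMA2 (0.21) and PSME1 (0.19).

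In LD against CA again no member passed (0% of all clusters did). The arrays were apart in 3 members, PSMA1, PSMA3 and PSMC4, all lower in LD (10.3% of all clusters were apart). Of 37 genes, 32 were lower, with a median of -0.22, against -0.11 and 32.0% higher over the protein-coding genes of like signal. The genes with the most negative differences were the ATPase PSMC4 (-0.63), PSMB5 (-0.41) and PSMB6 (-0.38), and the most positive were the activator PSME4 (0.18), PSMB2 (0.09) and PSMD4 (0.06). PSMC4 had 14.70, 14.59 and 14.01 in LD, against 14.71, 15.35 and 15.12 in CA. Its groups did not overlap, but the highest LD and the lowest CA array, both from plate 1, were nearly equal, and the 95% interval was -1.11 to -0.14 (adjusted p = 0.724). It was the only member with an unadjusted p below 0.05, where 6.35% of all clusters had one in either direction. The PSMC4 cluster with an Entrez identifier differed by -0.58 (adjusted p = 0.840). The remaining PSMC4 clusters, all of lower signal, ranged from -0.44 to -0.09. Arrays overlapped in all of these other clusters. The median depended on the arrays used in both groups. Without LD replicate 3 it was -0.03. Within plate 1, where all LD arrays were set against CA replicate 1 alone, it was also -0.03, with 18 genes higher and 19 lower.

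LD replicate 3 was the lowest of all 15 arrays in 19 of the 37 genes and the highest in none, and HD replicate 3 was the highest in 11. The same arrays were extreme over protein-coding genes in general: the mean of the 3749 genes of like signal was 10.68 in LD replicate 3 and 11.39 in HD replicate 3, the lowest and the highest of the 15 arrays. With each array centred on its own signal-dependent trend, the median deviation of the members in LD replicate 3 was -0.12 in place of -0.51, and in HD replicate 3 it was 0.09 in place of 0.33. The share of such array-wide shifts in the differences of single members was not tested.

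**Figure D3:**
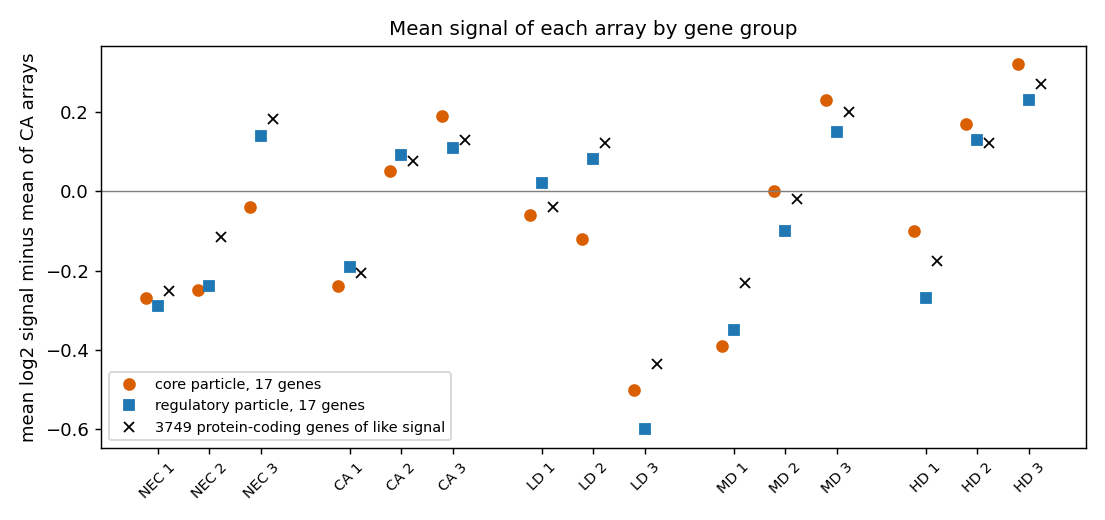
Mean log2 signal of each array relative to the mean of the CA arrays (y axis) for the 17 core genes (circles), the 17 regulatory genes (squares) and 3749 protein-coding genes of like signal (crosses), with the 15 arrays in the order NEC, CA, LD, MD and HD on the x axis. The subunit means follow the general mean of their array, with LD replicate 3 lowest in all 3 sets.

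Clean air flow itself was compared with no flow. In CA against NEC, 31 of 37 genes were higher and 6 lower, with a median of 0.19, against 0.06 and 59.3% higher over the protein-coding genes of like signal. No member passed (0% of all clusters did), and none had an unadjusted p below 0.05, which 5.44% of all clusters had in either direction. The arrays were apart in 4 members, PSMA1, PSMA3 and PSMB7 (higher in CA) and PSMD6 (lower in CA), where 9.75% of all clusters were apart. The beta ring subunit PSMB1 had 11.61, 12.43 and 12.50 in CA, against 11.08, 11.66 and 11.93 in NEC. CA was higher than NEC on each labelled plate, by 0.53 on plate 1, 0.77 on plate 5 and 0.57 on plate 6, and the difference was 0.63 (-0.01 to 1.26, adjusted p = 0.917). With the plate as a replicate block it was the only member with an unadjusted p below 0.05 (limma, adjusted p = 0.797), where 5.96% of all clusters had one in either direction. PSMD8 (0.41) and the ATPase PSMC3 (0.38) followed, and PSMD6 had the most negative difference (-0.27), with 11.18, 11.22 and 11.33 in CA, all below 11.51, 11.47 and 11.54 in NEC. The low-signal PSMA8 and PSMB10 came next, at -0.12 and -0.09, with overlapping arrays. The pairs on a shared plate varied: the median over the members was 0.10 on plate 1, 0.32 on plate 5 and 0.001 on plate 6, with 26, 32 and 19 of 37 genes higher.

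Between doses, the largest differences were those of HD against LD. Of 37 genes, 31 were higher in HD, with a median of 0.29, against 0.18 and 70.3% higher over the protein-coding genes of like signal. No member passed, where 0.0155% of all clusters did, and 4 had an unadjusted p below 0.05 (8.75% of all clusters in either direction): PSMB7, PSMB6, PSMA2 and PSMC4. The arrays of these 4 genes and of PSMA4 were apart, all higher in HD, where 13.9% of all clusters were apart in either direction. For PSMC4, the cluster with an Entrez identifier differed by 0.61 and its remaining clusters by -0.275 to 0.53, all with overlapping arrays. PSMB6 had 10.74, 10.81 and 9.75 in LD, all below the HD values given above, and the difference of 1.03 (0.38 to 1.68, adjusted p = 0.320) was the only one of a member beyond 2-fold in any comparison, where 1.08% of all clusters combined a fold change above 2 with an unadjusted p below 0.05 in HD against LD. By those limits no member qualified in HD, MD or LD against CA or in CA against NEC, where 0.821%, 0.525%, 0.524% and 0.439% of all clusters did. PSMB7 had 12.06, 11.85 and 11.55 in LD, with a difference of 0.76 (0.31 to 1.21, adjusted p = 0.279). PSMB5 differed by 0.46 (-0.21 to 1.14). PSMA2 differed by 0.58 (0.03 to 1.12). The most negative differences were those of PSMD5 (-0.18), PSMD6 (-0.17) and PSMD1 (-0.16), all with overlapping arrays. Without LD replicate 3 the median was 0.09, and with the plate as a replicate block it was -0.10, with PSMB6 at 0.91 and PSMB7 at 0.61. With each array centred on its signal-dependent trend, PSMB6 was at 0.86 and PSMB7 at 0.60. PSMB6 thus stayed within 2-fold under the block and after centring, and its lowest LD value, 9.75, was that of LD replicate 3.

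In HD against MD, 27 genes were higher, with a median of 0.14 against 0.08 over the genes of like signal. PSMB3 differed by 0.68 (-0.003 to 1.37), PSMB6 by 0.65 (0.004 to 1.30) and PSMB7 by 0.58 (0.13 to 1.02). PSMB6 had 10.11, 11.30 and 11.03 in MD and was the only member whose HD arrays were all higher than the MD arrays, and PSMD6 the only one whose HD arrays were all lower (9.94% of all clusters were apart). The most negative differences were those of PSMB11 (-0.35), PSMD6 (-0.24) and PSMA1 (-0.22). The lowest adjusted p of a member was 0.9998, 0% of all clusters passed, and 2 members, PSMB6 and PSMB7, had an unadjusted p below 0.05 (4.42% of all clusters in either direction). In MD against LD, 24 genes were higher, with a median of 0.08 against 0.09, and no member had an unadjusted p below 0.05 (8.57% of all clusters in either direction), while the arrays of 1 member, the low-signal PSMB11, were apart (14.4% of all clusters) and 0% of all clusters passed. PSMA2, PSMC4 and PSME1 differed by 0.43, 0.42 and 0.41, and at the negative end PSMD5, PSMB3 and PSMC1 by -0.31, -0.22 and -0.14.

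**Figure D4:**
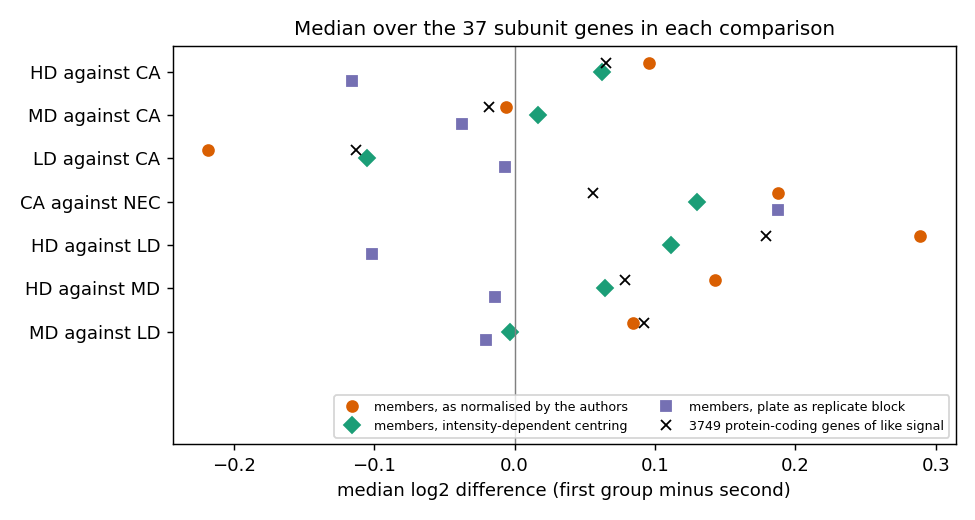
Median log2 difference of the 37 subunit genes in each comparison (x axis, first group minus second), as normalised by the authors (circles), after intensity-dependent centring (diamonds) and with the plate as a replicate block (squares), and the median of 3749 protein-coding genes of like signal (crosses). In HD against CA, LD against CA and HD against LD the members follow the direction of the other genes, and the plate block moves each median towards or past 0.

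A slope on the dimethylamine concentration was fitted to CA, LD, MD and HD, 12 arrays in all. The median slope of the members was 0.02 on the log2 scale per 10 ppm, against 0.01 over the genes of like signal, and 28 of 37 slopes were positive. No member passed (0.0744% of all clusters did), and 2 had an unadjusted p below 0.05 (7.55% of all clusters in either direction). These were PSMB6, with 0.10 per 10 ppm (0.02 to 0.18, adjusted p = 0.549), and PSMB7, with 0.07 (0.02 to 0.13, adjusted p = 0.526). Their LD means (10.43 and 11.82) were below their CA means (10.81 and 12.07), so the means did not follow the order of the doses. PSMD9 had 0.07 (-0.005 to 0.15) and PSMB5 0.02 (-0.05 to 0.10). The steepest negative slopes were those of PSMD1 (-0.05), PSMD5 (-0.04) and PSMA3 (-0.04). Without HD replicate 3, no slope of a member had an unadjusted p below 0.05 (limma). Of all 135750 clusters, 5165 positive and 5129 negative slopes had one in that setting.

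The core and the regulatory particle were then set against each other within each array. The mean log2 signal of the 17 core genes minus that of the 17 regulatory genes was taken per array and expressed relative to its mean over the CA arrays, since its level depends on the probes. It was 0.02, -0.01 and -0.17 in NEC, -0.05, -0.04 and 0.08 in CA, -0.08, -0.21 and 0.10 in LD, -0.04, 0.10 and 0.08 in MD, and 0.16, 0.04 and 0.09 in HD. The HD mean of 0.10 ± 0.06 (SD, n = 3) lay above the CA mean by more than the SD of either group (0.07 in CA), but the arrays of the groups overlapped. PSMB6 and PSMB7, the core genes with the largest differences between HD and CA, are part of the core mean. A score without them is not given here, so it does not show a shift of the core as a whole. LD averaged -0.06 ± 0.15, MD 0.05 ± 0.08 and NEC -0.05 ± 0.10. The separate parts were 0.13 ± 0.21 for the core and 0.03 ± 0.27 for the regulatory genes in HD, so both particles varied more between arrays of a group than they differed from CA. With 14 structural genes on each side, leaving out PSMA8, PSMB10, PSMB11 and the 3 chaperones, the HD arrays were at 0.20, 0.09 and 0.11 and the CA arrays at -0.02, -0.06 and 0.08. All HD arrays were then above all CA arrays, by 0.13 ± 0.06 on average (SD, n = 3), but the CA array that shares plate 6 with HD was close to the lowest HD array. The LD arrays were at -0.09, -0.23 and 0.10 and the MD arrays at -0.11, 0.04 and 0.14, so HD overlapped both other doses. In HD the parts were 0.14 ± 0.20 for the core and 0.01 ± 0.25 for the regulatory genes.

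**Figure D5:**
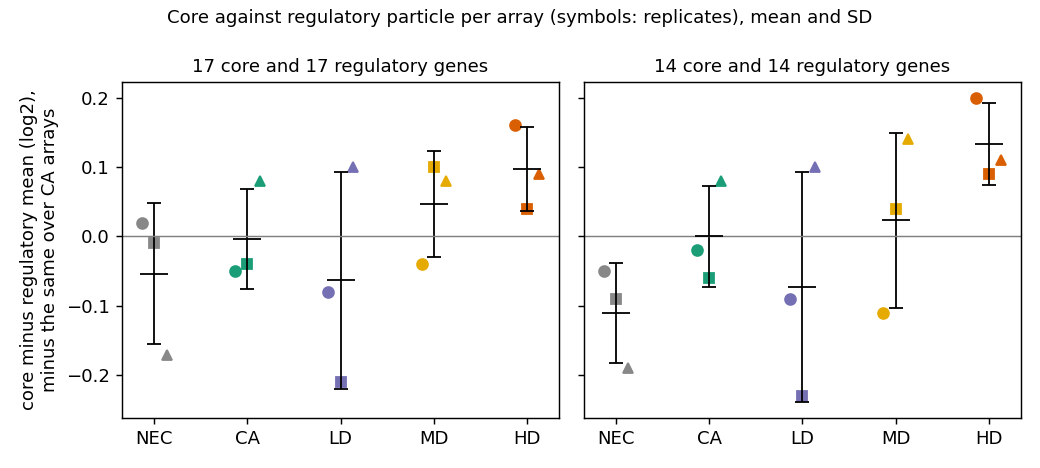
Mean log2 signal of the core genes minus that of the regulatory genes, relative to its mean over the CA arrays (y axis), for each array of NEC, CA, LD, MD and HD (x axis), with the mean and SD of 3 arrays in black. The left panel uses all 17 and 17 genes and the right panel 14 and 14 structural genes, and the HD arrays have the highest mean in both.

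Genes that act with the proteasome gave the context. Of 13 other subunits, assembly factors and inhibitors, none passed in HD against CA, where 0.0435% of all clusters did. Their median was 0.19, against 0.07 over the protein-coding genes with signals in the range of the members. An unadjusted p below 0.05 was reached by 2 of them, and by 6.39% of all clusters in either direction. PSMF1, an inhibitor of the core particle, had 11.84, 12.29 and 12.46 in HD, against 10.92, 11.78 and 11.74 in CA, with a difference of 0.72 (0.04 to 1.40, adjusted p = 0.758). AKIRIN2, which brings proteasomes into the nucleus, had 8.02, 8.06 and 8.15 in HD, against 6.91, 7.78 and 7.68 in CA, with a difference of 0.62 (0.11 to 1.13, adjusted p = 0.680). In both genes all HD arrays were higher, where 10.8% of all clusters were apart in either direction. PSMG1, a chaperone of alpha ring assembly, differed by 0.61 (-0.03 to 1.24).

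Of 12 enzymes and shuttles that bind the proteasome, 11 were measured and none passed in HD against CA. ZFAND2A, a stress-inducible proteasome-binding protein, had 9.53, 9.56 and 9.75 in HD, against 8.80, 8.90 and 8.77 in CA. Its groups were well apart, where 10.8% of all clusters were apart in either direction. The difference was 0.79 (0.30 to 1.29, adjusted p = 0.460), larger than that of any member in the same comparison. Its relative ZFAND5 differed by 0.50 (0.01 to 0.98) and the deubiquitinase UCHL5 by 0.32 (-0.11 to 0.74). Of 8 genes for transcriptional control by NFE2L1, 6 were measured and none passed. NFE2L1 itself differed by 0.07 (-0.40 to 0.54), NFE2L2 by 0.29 (-0.27 to 0.85) and MAFF by 0.28 (-0.18 to 0.75), all with overlapping arrays. Of 12 genes for ubiquitin, its activating enzymes and the segregase VCP with its partners, 9 were measured and none passed, and FAF1, a cofactor of VCP, had the lowest unadjusted p, with a difference of 0.60 (0.06 to 1.14, adjusted p = 0.736). VCP differed by 0.01 (-0.41 to 0.43).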

How the data were processed

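RNA from A549 cells was hybridised to Affymetrix Human Clariom D arrays. Per the labels and the study's methods, the authors processed the arrays with the Transcriptome Analysis Console by the robust multi-array average (RMA), which subtracts background, equalises the distributions of the arrays and summarises probes, and deposited log2 signals. Array-wide shifts of bright transcripts can remain after such a step. Of 138745 transcript clusters, 2995 controls were left out and 135750 were tested, of which 36176 carried exactly 1 symbol, 1119 several and 98455 none. Symbols were updated through RefSeq tables of GRCh38.p14: the Entrez identifier matched 25516, the symbol 9899 and a former symbol 623, and 138 were left as annotated. The annotation also names 31 clusters of pseudogenes of these subunits, so that hybridisation of related sequences cannot be told apart. The members and gene lists were chosen with earlier results of these data known.

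Differential expression was analysed in limma 3.58.1 (lmFit, eBayes) under R 4.3.3, with group means of 5 groups and all 15 arrays in 1 model. The moderated test was two-sided (residual degrees of freedom 10, prior 6.32), the Benjamini-Hochberg adjustment ran over all 135750 clusters, and intervals are at 95% confidence. Precision is limited by having 3 arrays in a group. Tables were read with the R package data.table (1.17.8), and summaries used Python 3.11.15, pandas 2.3.3 and SciPy 1.17.1. The procedure was tested on simulated data before use. The genes named were, for HD against CA, the 5 largest positive and 5 largest negative differences among the members, and 3 of each in the other comparisons and the slope, the catalytic PSMB5, PSMB6 and PSMB7, and up to 3 genes per accompanying list with the smallest p. Other members are named as examples of their role, after their values were seen. "Genes of like signal" are the 3749 protein-coding genes between the 10th and 90th centile of the members' mean signals. The alternatives were the exposure plate as a block, only the groups compared, quantile normalisation, centring on a lowess trend (span 0.3), a filter on dim clusters, adjustment over protein-coding genes, an intensity trend in the moderation, the mean of all clusters of a symbol, NEC as the reference, the study's criteria (unadjusted p below 0.05 and a fold change above 2) and leaving out each array. On a shared plate, the deviations of CA and NEC from their group means correlated at 0.261, 0.0699 and 0.204. Array depth has no counterpart here, and no other column of per-sample values was left aside.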

Additional observations from a re-analysis of the deposited data

How the results depend on the processing

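No member passed the adjusted threshold in any comparison under any alternative, and the lowest adjusted p over all of them was 0.142, in HD against LD. The study's limits were not run for the slope, to which a fold limit cannot apply. Medians over the members stayed within the spread between replicates except with the plate as a replicate block, which gave -0.10 in HD against LD and -0.00921 per 10 ppm for the slope. The core-minus-regulatory slope was then 0.005 per 10 ppm. With medians over members in place of means, the core-minus-regulatory difference was 0.27 in CA against NEC, 0.19 in HD against MD and -0.0522 in MD against LD. Leaving out each array gave medians of -0.01 to 0.23 in HD against CA, -0.16 to 0.09 in MD against CA, -0.26 to -0.03 in LD against CA, 0.10 to 0.29 in CA against NEC and 0.09 to 0.42 in HD against LD.

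With the plate as a replicate block, the sign turned in 14 of 37 members in HD against CA, 11 in LD against CA, 7 in MD against CA, 17 in HD against LD, 17 in HD against MD, 9 in MD against LD and 15 for the slope, and in 0 in CA against NEC. Among the genes named by rule in a comparison, PSMB5 was at -0.44 in HD against CA, 0.0717 in LD against CA, -0.51 in HD against LD and -0.0567 per 10 ppm, and PSMC4 was at -0.0237 and PSMC1 at 0.0425 in MD against LD. Centring put PSMB5 at -0.0205 in HD against CA. Against NEC, PSMA1 was at 0.0498 for HD and PSMD8 at 0.0237 for MD. The mean of all clusters put PSMB2 at -0.028 in LD against CA. Leaving out 1 array gave PSMB5 at -0.24 to 0.34 in HD against CA and -0.0046 to 0.0529 per 10 ppm, PSMA2 at -0.10 to 0.37 in MD against CA, PSMB2 at -0.077 to 0.23 and PSMD4 at -0.13 to 0.36 in LD against CA, PSMA8 at -0.22 to 0.0356 and PSMB10 at -0.29 to 0.15 in CA against NEC, PSMA1 at -0.43 to 0.0564 in HD against MD, and PSMB3 at -0.63 to 0.14 and PSMC1 at -0.39 to 0.0092 in MD against LD. None of these passed the threshold before or after, and the causes were not tested.

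Dose arrays that share a replicate number lay on different plates, and their deviations correlated at -0.146 to 0.152, so the numbers mark no pairing. With that number as a replicate block, no member passed in HD against LD, HD against MD or MD against LD, with medians of 0.29, 0.14 and 0.08. Plate and dose can be told apart only through 3 CA and 3 NEC arrays. In simulated arrays with these group sizes and 135750 clusters, HD against CA called 6 of 50 clusters changed 2-fold and 43 of 50 changed 4-fold. The simulated noise was independent between clusters and arrays, without plate effects or array-wide shifts. The changed clusters were drawn from all clusters, dim ones included, so the counts do not give the recovery for the members.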
